A study of Mus musculus with 9 samples.

Results

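Kruppel-like factors (Klfs) are DNA-binding proteins with zinc fingers at their carboxy end, and 10 of them were followed here in mouse brown adipose cultures: Klf2, Klf3, Klf4, Klf5, Klf6, Klf7, Klf9, Klf10, Klf13 and Klf15. The members were chosen by symbol, and each was read from its brightest probe set among those that the platform annotation gives a single gene symbol. Every member had 1 such probe set, so no choice between probe sets arose. The 10 members are part of 19858 genes that could be named on the array, and all 10 passed the filter on dim probe sets that left 13335 genes to test. Lysophosphatidic acid (LPA) raised 5 of them and lowered 1, against 12.2% of all genes higher and 10.8% lower. The autotaxin inhibitor HA155 moved none past the threshold, against 1.03% of all genes.

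Total RNA came from 9 primary cultures of interscapular brown fat from male C57BL/6 mice aged 5 weeks, each measured on 1 Affymetrix mouse gene array. Collagenase-digested tissue was filtered to enrich precursor cells, which grew in newborn calf serum with rising insulin until about day 9. The control group (3 cultures, subjects 1 to 3) received the vehicle DMSO. The HA155 group (subjects 4 to 6) received 2.5 µM HA155, a small molecule that blocks autotaxin, the secreted enzyme that makes LPA. The LPA group (subjects 7 to 9) received 5 µM 1-oleoyl-LPA, the lipid that autotaxin makes. The labels place each treatment at day 9 in vitro, whereas the series' design text speaks of exposure while the cells differentiated, so how long the cells were exposed is unknown here. Beyond the subject number nothing says how the cultures were derived, and a p-value here reflects the spread among these cultures, part of which may be technical.

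Klfs bind GC-rich and CACCC sequences in promoters and recruit either co-repressors such as CtBP, Sin3 and histone deacetylases or co-activators such as p300. Several of them act in sequence during fat cell formation. Klf4 works early, with Krox20 (Egr2), on Cebpb; Klf5 and later Klf9 and Klf15 act on Pparg, the master regulator of fat cells; Klf2, Klf3 and Klf7 hold differentiation back. Klf15 is also known for its control of amino acid breakdown, gluconeogenesis and the glucose transporter GLUT4, and Klf2 and Klf4 for their induction by fluid flow and growth signals through the kinase ERK5 and MEF2 factors.

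The promoters of members that moved are shown because Klfs bind the same GC-rich letters that these promoters carry. RefSeq windows (build GRCm38.p6) were matched by symbol for 8 of the 10 members; Klf5 and Klf10 had none. Each window below is the 250 bases before the annotated start site, 5′ to 3′ on the gene's own strand, with the GC box GGGCGG, searched on both strands, in capitals. Klf2, Klf3, Klf4 and Klf6 rose with LPA, and Klf9 and Klf13 did not pass the test.
Klf2: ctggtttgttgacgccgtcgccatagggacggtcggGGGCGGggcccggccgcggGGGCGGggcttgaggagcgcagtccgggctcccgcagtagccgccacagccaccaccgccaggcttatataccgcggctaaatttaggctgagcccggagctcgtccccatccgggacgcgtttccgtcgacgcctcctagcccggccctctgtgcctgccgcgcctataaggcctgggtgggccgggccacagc
Klf3: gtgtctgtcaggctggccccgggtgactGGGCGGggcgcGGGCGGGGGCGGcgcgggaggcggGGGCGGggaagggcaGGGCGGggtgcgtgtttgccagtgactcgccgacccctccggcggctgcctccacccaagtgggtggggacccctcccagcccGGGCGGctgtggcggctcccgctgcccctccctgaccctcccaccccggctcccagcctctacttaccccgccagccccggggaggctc
Klf4: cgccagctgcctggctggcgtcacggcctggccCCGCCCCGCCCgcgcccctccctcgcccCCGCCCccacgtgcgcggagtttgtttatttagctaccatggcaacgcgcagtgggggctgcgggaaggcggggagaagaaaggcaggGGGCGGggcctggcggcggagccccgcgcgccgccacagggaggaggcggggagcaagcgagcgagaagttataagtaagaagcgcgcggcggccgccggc
Klf6: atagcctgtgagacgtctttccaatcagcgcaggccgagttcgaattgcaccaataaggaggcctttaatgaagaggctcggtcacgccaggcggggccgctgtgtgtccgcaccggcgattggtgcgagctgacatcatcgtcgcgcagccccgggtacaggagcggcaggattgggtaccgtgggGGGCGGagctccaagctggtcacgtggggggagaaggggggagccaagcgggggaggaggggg
Klf9: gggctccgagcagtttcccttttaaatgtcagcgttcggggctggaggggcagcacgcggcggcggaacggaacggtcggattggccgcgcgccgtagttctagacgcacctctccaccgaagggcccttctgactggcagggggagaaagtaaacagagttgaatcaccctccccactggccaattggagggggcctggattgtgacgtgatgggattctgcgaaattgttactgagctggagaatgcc
Klf13: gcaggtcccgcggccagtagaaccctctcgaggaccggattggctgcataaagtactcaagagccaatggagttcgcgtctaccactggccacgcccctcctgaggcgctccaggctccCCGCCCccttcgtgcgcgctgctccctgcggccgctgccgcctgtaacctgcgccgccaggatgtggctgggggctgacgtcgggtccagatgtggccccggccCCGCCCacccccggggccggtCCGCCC
The windows lie at chr8:72318812-72319061 on the plus strand (Klf2), chr5:64803271-64803520 on the plus strand (Klf3), chr4:55532476-55532725 on the minus strand (Klf4), chr13:5861239-5861488 on the plus strand (Klf6), chr19:23140976-23141225 on the plus strand (Klf9) and chr7:63938916-63939165 on the minus strand (Klf13). Klf3 carried 6 GC boxes, Klf4 carried 4, Klf2 carried 2, and Klf6 carried 1. Of the members not called, Klf13 carried 3 and Klf9 carried 0, so the number of boxes did not separate the members that rose from those that did not. The windows of Klf7 and Klf15, with 1 box each, start inside the gene as the table spans it and are not shown.

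The GC box was present in 7 of the 8 windows, all but that of Klf9, against 32.7% of 32851 mouse promoter windows of the same length. The members' windows had a GC content of 59.2% to 78.4% (median 71.4%), against a median of 52.4% over all windows, so the letters of the box are more frequent in them to begin with. The CACCC box CCACCC, on either strand, was present in 4 windows (Klf2, Klf3, Klf7 and Klf13), against 28.1% of all windows. The TEAD element GGAATG was in 0 of 8 windows against 12.6%, and the CArG box, the letters bound by serum response factor, in 0 of 8 against 1.47%. A MEF2 site was found in 1 of 8 windows against 2.92% of all. It lies 118 to 109 bases before the start of Klf2 and is shown in capitals within its neighbouring bases, since MEF2 is a known route to this gene.
Klf2 MEF2 site: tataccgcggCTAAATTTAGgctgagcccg
That stretch lies at chr8:72318934-72318963 on the plus strand. These matches describe letters in a window and say nothing of whether a factor was bound in these cultures.

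The deposited values are intensities on a linear scale, made with the array summary RMA, and are given below as log2 intensity. The arrays' median intensities ran from 70.7 to 72.8. On the first principal component, which held 66.7% of the variance, the 3 LPA arrays lay between 19.6 and 28.7 and the other 6 between -15.5 and -7.28. Array 8 of the LPA group had the lowest mean correlation with the other arrays (0.985). The median gene's SD was 0.0743 in the controls, 0.0540 with HA155 and 0.107 with LPA. Differences were tested with limma over all 13335 genes, and a gene is called here at a Benjamini-Hochberg adjusted p below 0.05. By that rule LPA against control called 23.0% of genes (12.2% higher, 10.8% lower), HA155 against control 1.03% (0.607% higher, 0.427% lower) and LPA against HA155 26.1% (13.7% higher, 12.4% lower).

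With LPA, the repressors Klf2, Klf3 and Klf7 and the early activators Klf4 and Klf6 rose, by 1.21-fold to 1.56-fold, and the late metabolic activator Klf15 fell by 22.8%. Klf5, Klf9, Klf10 and Klf13 did not pass the test. Thus 6 of 10 members were called against the 23.0% of all genes, and in the same 6 members the LPA and control arrays did not overlap, which held for 33.1% of all genes. The members' median log2 change was 0.24, beside 0.01 over all genes tested. In a culture of mixed cells, fewer cells of a type and less RNA per cell cannot be told apart.

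**Figure D1:**
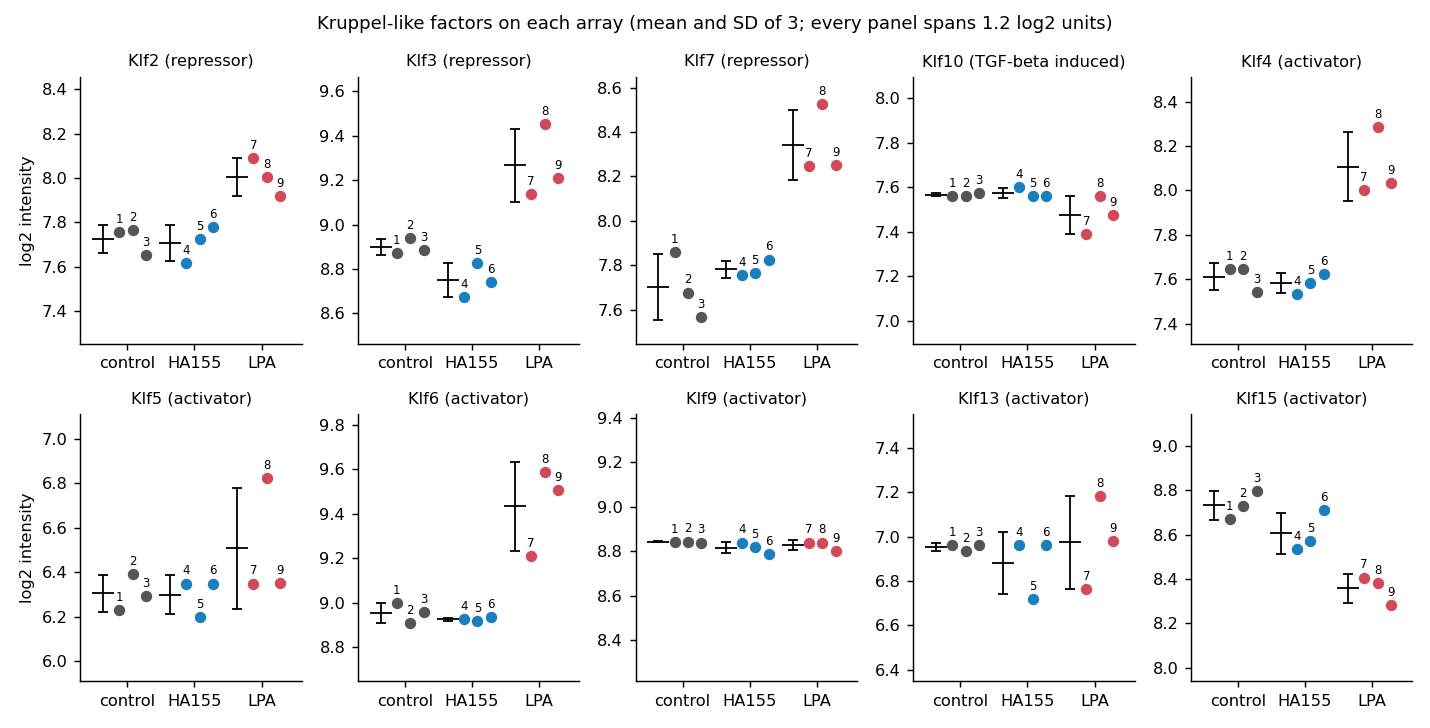
Log2 intensity of each Kruppel-like factor (vertical axis, 1.2 log2 units in every panel) on each of the 9 arrays (numbered points; control grey, HA155 blue, LPA red), with bars for the mean and SD of 3 arrays. Every LPA point lies above every control point for Klf2, Klf3, Klf4, Klf6 and Klf7 and below for Klf15, while the groups overlap for Klf5, Klf9, Klf10 and Klf13.

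Of the 3 members known to hold fat cell formation back, all 3 rose with LPA (median log2 change 0.37), against 12.2% of all genes. Klf7, whose forced expression blocks adipocyte differentiation, showed the largest change of the 10. Its log2 intensities were 7.86, 7.68 and 7.57 in the controls and 8.25, 8.53 and 8.25 with LPA. The lowest LPA array thus stood well above the highest control array. The log2 change was 0.64 (SE 0.09, 95% interval 0.44 to 0.84), or 1.56-fold, with a limma adjusted p of 0.000439. Klf3, which recruits CtBP and represses Cebpa, was at 8.87, 8.94 and 8.89 in the controls and at 9.14, 9.45 and 9.21 with LPA. Array 8 was the highest of the LPA arrays, and each of the 3 exceeded every control. Klf3 rose by 0.37 (SE 0.08, interval 0.19 to 0.55), or 1.29-fold, at an adjusted p of 0.00743 in limma. Klf2, which represses Pparg in preadipocytes, was at 7.76, 7.76 and 7.65 in the controls and at 8.09, 8.00 and 7.92 with LPA. Here array 8 was the middle value. The rise of Klf2 was the smallest of the 5, 0.28 (SE 0.07, interval 0.13 to 0.43), or 1.21-fold, with a limma adjusted p of 0.0119. Without control array 3 the change was 0.24 and its limma adjusted p 0.0509, so the call of Klf2 rests on that array.

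Of the 6 members known to promote fat cell formation, 2 rose, 1 fell and 3 did not pass the test (median log2 change 0.11). Over all genes 12.2% rose and 10.8% fell. Klf4, an early factor that is also one of the reprogramming factors of pluripotency, was at 7.65, 7.65 and 7.54 in the controls and at 8.00, 8.29 and 8.03 with LPA. All LPA arrays were higher than all controls, and array 8 was the highest. Klf4 rose by 0.50 (SE 0.08, interval 0.32 to 0.67), or 1.41-fold, with a limma adjusted p of 0.000830. Klf6, which represses the preadipocyte gene Dlk1, was at 9.00, 8.91 and 8.96 in the controls and at 9.21, 9.59 and 9.50 with LPA. The LPA arrays were again all higher, with array 7 nearest to the controls. Klf6 rose by 0.48 (SE 0.09, interval 0.29 to 0.67), or 1.39-fold, with a limma adjusted p of 0.00211. The windows of Klf4 and Klf6 both hold GC boxes, as does that of Klf15, which moved the other way.

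Klf15, the activator of GLUT4 and of amino acid breakdown, was the single member that fell. Its log2 intensities were 8.67, 8.73 and 8.80 in the controls and 8.41, 8.38 and 8.28 with LPA. Every LPA array was below every control array, and array 8 was the middle value. Klf15 fell by 0.37 on the log2 scale (SE 0.07, interval -0.52 to -0.22), or 1.30-fold, with a limma adjusted p of 0.00200.

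The other 3 activators gave intervals that include 0. Klf5, an early activator of Pparg, was at 6.23, 6.39 and 6.29 in the controls and at 6.35, 6.82 and 6.35 with LPA, so that array 8 alone stood above the rest. Its log2 change was 0.20 (interval -0.05 to 0.46, limma adjusted p = 0.246), and without array 8 it was 0.05. Klf9, a factor raised by thyroid hormone and glucocorticoids, was nearly flat, at 8.84 on all 3 control arrays and at 8.84, 8.84 and 8.80 with LPA. The change of Klf9 was -0.02 with an interval of -0.13 to 0.10 (limma adjusted p = 0.863). That interval does not reach the change of any called member. Klf9 held the same value on 4 arrays (1 control, 1 HA155 and 2 LPA), however, which can make its spread and its change look smaller than they were. Klf13, an activator of Pparg, was at 6.96, 6.93 and 6.96 in the controls and at 6.76, 7.18 and 6.98 with LPA. Its LPA arrays lay on both sides of the controls, and the change was 0.02 (interval -0.20 to 0.25, limma adjusted p = 0.908). Klf10, the TGF-beta inducible early gene, was at 7.56, 7.56 and 7.57 in the controls and at 7.39, 7.56 and 7.48 with LPA. The Klf10 change was -0.09 (interval -0.22 to 0.04, limma adjusted p = 0.314).

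HA155 called 0 of 10 members, beside 1.03% of all genes (0.607% higher, 0.427% lower), and 0 members had an unadjusted limma p below 0.05, beside 1082 of the 13335 genes. The members' median log2 change was -0.03. Klf3 was at 8.68, 8.83 and 8.74 with HA155, below all 3 controls, and was the single member whose HA155 and control arrays did not overlap; 16.8% of all genes showed such a separation. Its change was -0.15 (interval -0.33 to 0.03, limma adjusted p = 0.744). Klf15 was at 8.54, 8.57 and 8.71 with HA155, which overlaps the controls, and its change was -0.13 (interval -0.27 to 0.02) with the lowest adjusted p of the members, 0.742 in limma. Klf7 was at 7.76, 7.76 and 7.83, within the span of the controls, with a change of 0.08 (interval -0.12 to 0.28). The remaining 7 members changed by -0.07 (Klf13, interval -0.30 to 0.15) to 0.01 (Klf10, interval -0.12 to 0.14). Klf4 was at 7.53, 7.58 and 7.62 with HA155, and Klf6 at 8.92, 8.92 and 8.93, both inside or just below the span of their controls. Klf2, at 7.62, 7.73 and 7.78, reached past its controls at both ends. The intervals of Klf2 (-0.17 to 0.13), Klf4 (-0.20 to 0.14) and Klf6 (-0.22 to 0.16) leave out changes of the size that LPA gave.

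Set directly against HA155, LPA called the same 6 members in the same directions, against 26.1% of all genes. In these 6 the LPA and HA155 arrays did not overlap, as in 38.7% of all genes. The LPA arrays are shared with the comparison against control, so the values stand side by side and are not independent. Klf7 was higher than with HA155 by 0.56 (limma adjusted p = 0.000902), Klf4 by 0.53 (limma adjusted p = 0.000469) and Klf3 by 0.52 (limma adjusted p = 0.000703). Klf6 was higher by 0.51 (limma adjusted p = 0.00121) and Klf2 by 0.30 (limma adjusted p = 0.00742). These 5 are the 3 repressors and the early activators Klf4 and Klf6. Klf15 was lower with LPA than with HA155, with a log2 change of -0.25 and a limma adjusted p of 0.0187. That call was lost without HA155 array 6 (-0.19, limma adjusted p = 0.0921) and without LPA array 9 (-0.21, limma adjusted p = 0.0568). Klf5, Klf9, Klf10 and Klf13 differed by 0.21, 0.01, -0.10 and 0.09, and none of these 4 passed the test. A limma moderated F over the 3 groups likewise passed the same 6 members, against 24.5% of all genes, with adjusted p-values from 0.000592 (Klf7) to 0.0109 (Klf2).

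**Figure D2:**
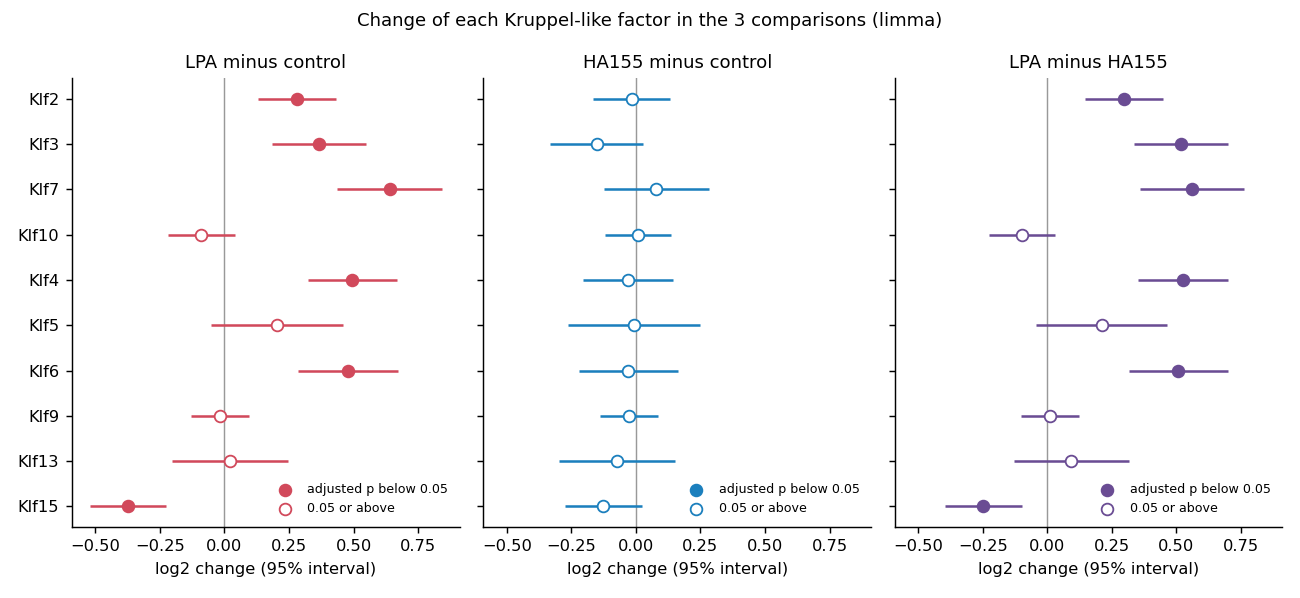
Log2 change of each member (points, horizontal axis) with its 95% interval (lines) for LPA minus control, HA155 minus control and LPA minus HA155; filled points have a limma adjusted p below 0.05. In the left and right panels the filled points are 5 members to the right of 0 and Klf15 to the left, and in the middle panel every interval crosses 0.

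One array and a set of repeated values bear on these levels. Array 8 was the highest of the 3 LPA arrays in 7 of 10 members, against 31.6% of all genes. Without it the same 6 members were called for LPA against control, with log2 changes of 0.55 for Klf7, 0.41 for Klf4, 0.40 for Klf6, 0.28 for Klf2, 0.27 for Klf3 and -0.39 for Klf15. Some members also held exactly the same value on several arrays. Klf10 had 1 value on 5 arrays (2 control, 2 HA155 and 1 LPA), Klf9 and Klf13 on 4 arrays each and Klf5 on 3. Thus 4 of 10 members had at least 3 arrays at the same value, beside 27.2% of all genes, and none of those 4 members was called. Such ties can make the spread within a group look smaller than it was. Where they run across groups, they can also bring the group means closer together.

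For the 3 members with the smallest p in the moderated F, the genes most like them over the 9 arrays were found by Pearson correlation, a description that rests largely on the gap between the LPA arrays and the rest. Klf4 was followed most closely by Itga5, the fibronectin receptor subunit (r = 0.996), then by Rcn1, a calcium-binding protein of the endoplasmic reticulum (0.993), and Ddah1, which breaks down asymmetric dimethylarginine (0.989). Klf7 was followed by Nsa2, a ribosome assembly factor (0.991), Ecm1, an extracellular matrix protein (0.987), and Lrig3, a leucine-rich repeat membrane protein (0.985). Klf6 was followed by Npr2, a natriuretic peptide receptor (0.984), Pawr, a pro-apoptotic regulator (0.984), and Pias3, a SUMO ligase that inhibits STAT3 (0.983).

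Among 15 further Klf and Sp genes with a probe set, 9 passed the filter, and LPA called 0 of them in limma, with 2 at an unadjusted p below 0.05. Those 2 were Sp1, the general GC-box activator (log2 change 0.31, limma adjusted p = 0.0739), and Klf11, a TGF-beta inducible relative of Klf10 (0.16, limma adjusted p = 0.0654). Leaving out LPA array 7 or LPA array 8 gave 1 call in this group. The list's median change was 0.02, and HA155 called 0 of the 9 with 0 at an unadjusted p below 0.05. Of 16 tested genes for proteins that Klfs recruit or that degrade them, 0 rose and 2 fell with LPA (median 0.02). Kat2b, the acetyltransferase PCAF, fell by 0.24 (limma adjusted p = 0.0120). Hdac2, a histone deacetylase, fell by 0.28 (limma adjusted p = 0.0441), a call that remained in 7 of 18 alternative settings. Without any 1 of the control or HA155 arrays, or without LPA 7 or LPA 8, 1 of these 16 fell, and without LPA 7 another 1 rose. HA155 called 0 of the 16 in limma, and 0 had an unadjusted p below 0.05.

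The transcription factors around the Klfs in the fat cell cascade were split, with 4 of 14 higher and 4 lower under LPA (median 0.01). Of all genes 12.2% were higher and 10.8% lower. Egr2, the partner of Klf4 on the Cebpb promoter, rose by 0.78 (SE 0.11, limma adjusted p = 0.000438). Cebpb itself changed by 0.06 and did not pass (limma adjusted p = 0.748). Pparg, which Klf2 represses and Klf5, Klf9 and Klf15 activate, fell by 0.46 (SE 0.06, limma adjusted p = 0.000213), and Cebpa, the target that Klf3 represses, fell by 0.58 (SE 0.09, limma adjusted p = 0.000617). Srebf1, the activator of lipid synthesis, fell by 1.16 (limma adjusted p = 1.59e-06). Dlk1, the preadipocyte gene that Klf6 represses, rose with LPA by 0.25 (limma adjusted p = 0.0339, kept in 11 of 18 alternative settings). With HA155, Dlk1 fell by 0.82 (SE 0.08, limma adjusted p = 0.000609), and it was the single gene of the 14 that HA155 called. Cebpd (0.79), Ebf1 (0.23) and Zfp467 (-0.33), the other called factors, together with Cebpb were named after their values were seen. Cebpd kept its call in 18 of 18 alternative settings, Zfp467 in 8 and Ebf1 in 6. The count of higher genes was 2 without control 1, control 2, LPA 8 or LPA 9.

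Genes of glucose and amino acid metabolism linked to Klf15 were lower as a group. With LPA 13 of 16 fell and 0 rose (median log2 change -0.69), against 10.8% of all genes lower. Whether Klf15 controls each gene of the list was not tested. Slc2a4, the glucose transporter GLUT4, fell by 1.94 (SE 0.07, limma adjusted p = 1.22e-07). Acss2, which makes acetyl-CoA from acetate, fell by 1.54 (limma adjusted p = 5.14e-06). Both proteins bring fuel into metabolism. Acss1, also in the list and named after its value was seen, changed by -0.07 and did not pass (limma adjusted p = 0.567). Bcat2, which starts the breakdown of branched-chain amino acids, fell by 0.91 (limma adjusted p = 1.09e-05). Gpt, an alanine aminotransferase, fell by 0.94 (limma adjusted p = 1.35e-05). With HA155, 1 of the 16 rose, Pck1, the rate-limiting enzyme of gluconeogenesis, by 0.84 (limma adjusted p = 0.0450). That count was 0 without any 1 of the control or HA155 arrays and 5 without LPA 8. At an unadjusted limma p below 0.05 there were 8 of the 16 with HA155, beside 1082 of all 13335 genes. The list's median change with HA155 was 0.19, beside 0.002 over all genes. Klf15 did not pass the test in that comparison, where its change was -0.13. Slc2a4 is also typical of mature fat cells, whose markers fell with LPA as well.

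Glucocorticoid-responsive genes were read because glucocorticoids raise Klf9 and Klf15. The list includes the receptor gene Nr3c1 and sets no shared direction. With LPA 4 of 14 rose and 3 fell (median -0.02), against 12.2% of all genes higher and 10.8% lower. Mt2, a metallothionein, rose by 0.80 (limma adjusted p = 5.10e-06), and Errfi1, a brake on EGF receptors, rose by 0.70 (limma adjusted p = 1.09e-05). Lcn2, a lipocalin, fell by 1.49 (limma adjusted p = 0.000198), and Zbtb16, a zinc-finger factor, fell by 0.75 (limma adjusted p = 2.63e-05). Hsd11b1, which regenerates active glucocorticoid, fell by 0.58 (limma adjusted p = 0.000224). The other 2 that rose, Sgk1 (0.39) and Mt1 (0.22), were named after their values were seen, and Mt1 kept its call in 8 of 18 alternative settings. HA155 called 1 of the 14, Mt2 (0.29, limma adjusted p = 0.0450), and the call remained in 8 of 18 alternative settings.

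A list of ERK5 and MEF2 genes, which feed Klf2 and Klf4, was joined with the known Klf2 targets S1pr1, Nos3 and Thbd. It gave 4 of 10 higher and 1 lower with LPA (median 0.18), against 12.2% and 10.8% of all genes. Mapk7, which encodes ERK5, rose by 0.26 (limma adjusted p = 0.00958), and Mef2c rose by 0.36 (limma adjusted p = 0.00409). S1pr1, a sphingosine-1-phosphate receptor, rose by 0.43 (limma adjusted p = 0.00115). Nos3, the endothelial nitric oxide synthase, fell by 0.70 (limma adjusted p = 4.93e-05), so S1pr1 and Nos3 moved in opposite directions while Klf2 rose. Thbd, the remaining target, changed by 0.24 and did not pass (limma adjusted p = 0.0857). It was higher with LPA than with HA155 by 0.35 (limma adjusted p = 0.0159), and it was named after its values were seen. The fourth to rise, Map3k3 (0.20, limma adjusted p = 0.0499), was named after its value was seen and kept its call in 6 of 18 alternative settings. HA155 called 0 of the 10 in limma, with 0 at an unadjusted p below 0.05.

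The TGF-beta list is that of the pathway that induces Klf10. With LPA 8 of its 12 genes rose and 0 fell (median 0.35), against 12.2% of all genes higher. Klf10 itself did not pass the test. Tgfb3, a ligand, rose by 0.58 (limma adjusted p = 0.000325), and Tgfbr2, a receptor, by 0.43 (limma adjusted p = 0.000404). Tgif1, a repressor of the pathway, rose by 0.46 (limma adjusted p = 0.00186), and Smad7, its inhibitory Smad, by 0.57 (limma adjusted p = 0.00397). The count was 5 without control 2 or control 3. HA155 called 0 of the 12 in limma, and 1 had an unadjusted p below 0.05.

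Serum response factor and its targets, a list of early genes that growth signals raise and of contractile and cytoskeletal genes, held the largest upward change among these lists (that of Ccn1): 9 of 16 rose and 0 fell with LPA (median 0.41), against 12.2% of all genes higher. Ccn1, a matricellular protein, rose by 1.88 (SE 0.09, limma adjusted p = 2.33e-07). Egr1 and Fos, immediate early factors, rose by 1.57 (limma adjusted p = 2.20e-05) and 1.22 (limma adjusted p = 2.37e-05), and Ier2 rose by 0.86 (limma adjusted p = 1.17e-05). No CArG box was found in the 8 promoter windows of the members, but only 1.47% of all windows hold one. At that share 0 of 8 tells nothing of serum response factor, and whether it acts on the members was not tested. Of the contractile and cytoskeletal genes, Tagln (0.46) and Myl9 (0.35) are among the 9, while Vcl (-0.13), Actg2 (0.26) and Cnn1 (0.21) did not pass. Srf itself changed by 0.16 and did not pass (limma adjusted p = 0.140). These genes were named after their values were seen. The lists overlap: Egr2 is also in the cascade list, Tagln and Cnn1 are also in the smooth muscle list, and Prdm16 and Ebf2 are in both the cascade and the brown adipocyte lists. HA155 called 0 of the 16 in limma, with 1 at an unadjusted p below 0.05, and 1 was called without control 3 or LPA 8.

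**Figure D3:**
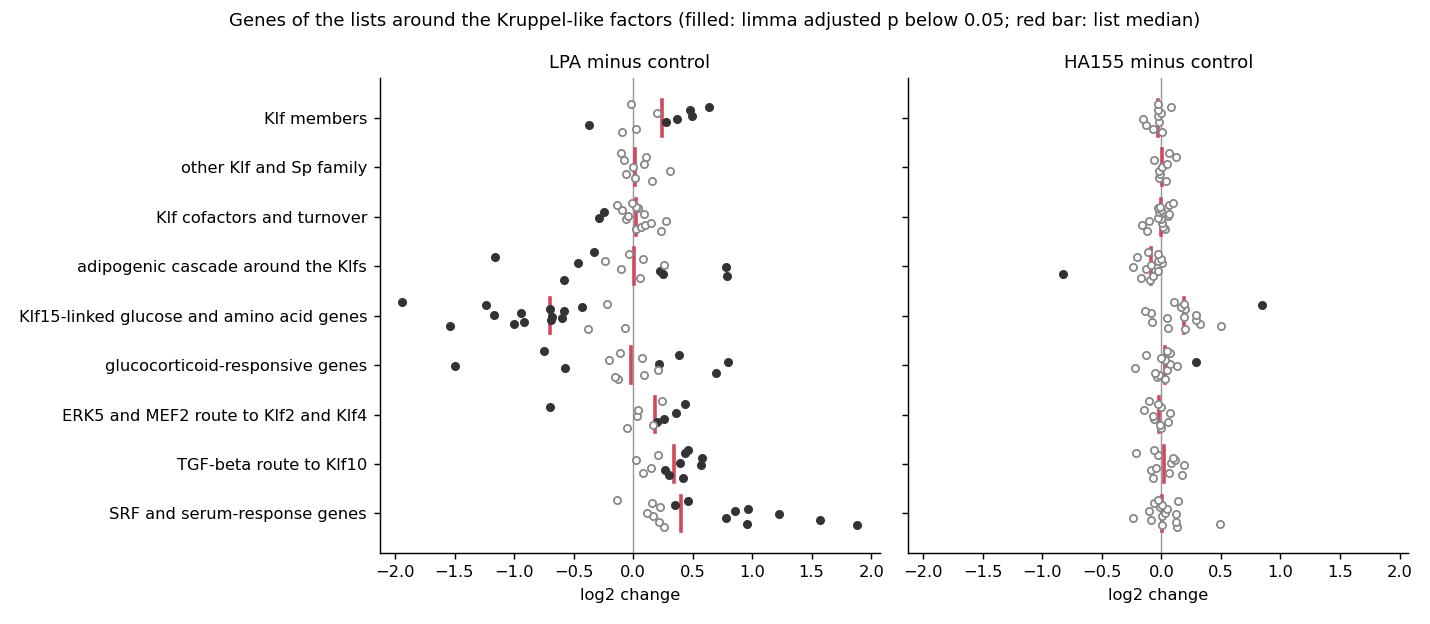
Log2 change (horizontal axis) of each tested gene (points; filled where the limma adjusted p is below 0.05) in the Klf members and 8 related lists, for LPA minus control (left) and HA155 minus control (right), with the list's median as a red bar. With LPA the Klf15-linked genes lie mostly to the left of 0 (13 of 16 fell) and the serum-response genes mostly to the right (9 of 16 rose). With HA155 most points lie near 0, and the median of the Klf15-linked list is 0.19.

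Klf2 and Klf4 are abundant in blood vessel cells and Klf4 and Klf6 in activated stroma, so markers of other cells were read beside them. Of 12 endothelial markers, 4 were below the filter (Pecam1, Kdr, Emcn and Sox17), and of the 8 tested Tek rose and Sox18 fell with LPA. Sox18 was not called without control 2, control 3 or LPA 8. The 12 markers' summed intensity was 898 to 975 in the controls, 841 to 907 with HA155 and 907 to 949 with LPA. Macrophage markers gave 0 calls of 7 in either comparison, with 5 below the filter (Adgre1, Itgam, Mrc1, Fcgr1 and Ptprc) and sums of 851 to 969, 1052 to 1198 and 850 to 1138 in controls, HA155 and LPA. At an unadjusted p below 0.05 the macrophage list had 0 genes for LPA and 1 for HA155 in limma. With LPA neither summed level lay apart from the controls. Many of these markers were near or below the filter, so the sums could miss a change in these cells. Lyz2, the brightest macrophage marker (mean log2 intensity 8.09 in the controls), weighs most in its sum. With LPA the muscle lists were higher, as were Klf2, Klf3, Klf4, Klf6 and Klf7. Smooth muscle and pericyte markers rose in 4 of 9 (Des, Acta2, Smtn and Tagln), with Rgs5 below the filter. Their summed intensity was 2754 to 3050 in the controls, 3250 to 3794 with HA155 and 3963 to 4109 with LPA. That sum lay above the controls with HA155 as well. Acta2, the brightest of these markers (mean log2 intensity 10.7 in the controls), weighs most in it, and its change with HA155 did not pass (0.32, limma adjusted p = 0.224). HA155 called 0 of the 9 smooth muscle markers. Skeletal muscle markers rose in 6 of 11, with sums of 1448 to 1541, 1462 to 1593 and 1931 to 2248, and with Myf5 below the filter. HA155 raised 1 of these, Myh1. Beside both muscle counts, 12.2% of all genes rose with LPA. The part of these cells in the rises of the Klf genes was not tested.

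The fall of Klf15 went with lower fat cell markers. All 10 adipocyte markers tested fell with LPA, against 10.8% of all genes. Their summed intensity was 39973 to 41292 in the controls, 43195 to 44807 with HA155 and 21819 to 22365 with LPA. Cidec, a lipid droplet protein, fell by 1.88 (limma adjusted p = 5.01e-08), and HA155 raised 3 of the 10. Of 10 brown adipocyte markers, the defining genes Ucp1, Cidea, Dio2 and Elovl3 had means below the filter. In the limma fit without the filter, Ucp1, Dio2 and Elovl3 were called in no comparison. Cidea, a lipid droplet protein of brown fat, had a mean log2 intensity of 4.92 in the controls, 6.39 with HA155 and 4.75 with LPA, and in that fit it was higher with HA155 than in the controls (limma adjusted p = 0.00108). Among the 6 tested, Cox7a1 (-1.84), Cox8b (-1.85) and Ppargc1a (-0.60) fell and Zic1 (0.43, not called without control 1, control 2, LPA 8 or LPA 9) rose with LPA. HA155 raised Cox7a1 (1.13) and Cox8b (1.01). The brown markers summed to 1740 to 1808 in the controls, 2569 to 2718 with HA155 and 1061 to 1225 with LPA. The change of Klf15 with HA155 was -0.13 (interval -0.27 to 0.02), and no direction is read from it. The part of the fat cell share in the fall of Klf15 with LPA was not tested.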

How the data were processed

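Per the labels, biotin-labelled RNA was hybridised with Affymetrix's standard protocol. The authors deposited 1 intensity per probe set and array. RMA was used, per the submitters' processing notes, with a version not given in the sources used here. The scale was read as linear from the range of the intensities. Quantile normalization within RMA gives all arrays a like distribution, so a global shift is not visible. Of 35432 probe sets, 21706 had 1 symbol, 1605 several (not used) and 12121 none. Log2 was taken without an offset, the brightest single-symbol probe set stood for a gene, and genes with a mean below the 40th percentile of probe sets (5.59, intensity 48.2) were left out, which left 13335.

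The limma package (version 3.58.1, under R 4.3.3) was fitted to the 3 groups together, 9 arrays with 6 residual degrees of freedom, by lmFit and eBayes, two-sided, with Benjamini-Hochberg adjustment over all genes at 0.05, after a check on simulated data. An exact test of 3 against 3 cannot go below p = 0.1. The labels name no batch, so whether any batch coincides with a group is unknown, and its part in the differences was not tested. The most alike arrays shared the same value in 2649 probe sets, so none was a copy. The members and lists were chosen with earlier results of these data known. Genes named beside the members were taken, in each list, from the 4 with the smallest p for LPA and the 2 for HA155. The 3 most correlated with each of 3 members were named as well. Not every gene that the rule chose in a list is named. Genes below the filter, genes shared between lists and genes said to be named after their values were seen lie outside the rule. Alternatives changed the filter, offset, probe set rule, normalization, arrays fitted, weights and prior, and left out each array.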

Additional observations from a re-analysis of the deposited data

How the results depend on the processing

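Across 18 alternative settings, 10 of the 12 called member values stayed called with the same direction; the exceptions were Klf2 for LPA against control and Klf15 for LPA against HA155, each lost without single arrays as given beside them. Of the 18 member values not called, 0 gained a call, and 7 changed sign in at least 1 setting, so no direction is read from them. The number of members called with arrays left out ranged from 5 to 6 for LPA against control, for LPA against HA155 and for the moderated F, and was 0 for HA155 against control throughout. The moderated F was not run on the fits to 6 arrays, since it compares all 3 groups. The count over all genes for HA155 against control, 138, depended most on the setting: it was 86 with no filter, 338 with array weights and 39 (without control 2) to 235 (without LPA 8) with an array left out; the cause was not tested. No paired analysis was possible because the subject numbers differ between the groups. With 3 arrays a group, the number of arrays limits the precision, and the interval of Klf5 for LPA against control reaches 0.46, past the change called for Klf2.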
